A study of Gallus gallus with 12 samples.

Results

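The genes described here are those of the growth hormone receptor, insulin and the insulin-like growth factors in the hypothalamus of heat-stressed broilers: the ligands IGF1, IGF2 and INS, the receptors GHR and IGF1R, and the carrier IGFBP2. Their probes were chosen by name, as all probes of the array whose annotated transcript carries one of these 6 chicken gene symbols. Of the 4814 genes with a named probe these are 6, and they had 23 of the 43603 probes besides the controls, with 8 for GHR, 6 for IGF1R, 4 for IGF2, 2 each for IGFBP2 and INS, and 1 for IGF1. RNA of 12 female Anak_40 broilers, full sibs or siblings through 1 parent, was measured on 1-colour Agilent arrays, 1 bird per array and 4 birds per group. HS birds were kept at 34°C for 24 h at the age of 56 d, TR birds had the same heat and then 24 h of recovery at 25°C, and CL birds stayed at the 25°C in which all 12 were reared. No transgene or deletion is described for any bird.

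In the growth axis, growth hormone from the pituitary binds GHR, which signals through the kinase JAK2 and STAT5 and raises transcription of IGF1 in target tissues, above all in liver. IGF1 and IGF2 act through the receptor tyrosine kinase IGF1R, while insulin acts mainly through its own receptor, and IGF-binding proteins such as IGFBP2 carry the IGFs and limit their access to the receptor. In the chicken, GHR lies on the Z chromosome, and loss of its function causes sex-linked dwarfism. In the brain of adult mammals, IGF2 is made mainly in the choroid plexus, the meninges and vessels.

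The arrays held between 33505 and 36852 spots above background, and the median signal was between 11.81 and 17.29 times the local background. HS4 had the fewest such spots, and the lowest signal that counted as above background was highest on that array, at 5.56 on the log2 scale, against 4.12 to 4.98 on the other 11 arrays. Slide and group cannot be told apart, because the 4 arrays of a group shared 1 slide. The p-values measure only the spread between the 4 birds of each group. The deposited characteristics give spleen, male and a virus infection for the samples, whereas the titles and the treatment text give hypothalamus and female. The astrocyte gene GFAP and the W-linked gene HINTW were above background on all 12 arrays, and so were 3 of the 8 hypothalamic markers on the array, while 1 of the 8 was above background on none. Of the spleen and lymphoid list, 5 of the 7 genes measured were also above background on all 12 arrays, with a summed linear signal of 280000 to 298000 in HS, 300000 to 330000 in TR and 310000 to 347000 in CL. The sums were 495000 to 633000 in HS, 474000 to 644000 in TR and 467000 to 545000 in CL for 6 astrocyte genes, 73600 to 92500, 56900 to 105000 and 74400 to 97800 in the same groups for 4 fibroblast genes, and 25700 to 66600, 31700 to 67600 and 19500 to 170000 for 3 red blood cell genes. Nearly all of the spleen sum came from CD74, a chaperone of MHC class II, which was lower on all HS arrays than on those of the other groups. Of the 6 tested genes of that list, 3 had a higher and 3 a lower mean in HS than in CL. The sums of the other 3 lists overlapped between groups.

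Expression of the 6 genes was compared first as a set. Of the 23 probes, 18 were above background on all 12 arrays, 1 on none, and 19 were tested. For a test, 1 group or more had to be above background throughout its 4 arrays. A probe was called DE at p under 0.05, FDR under 0.15 and FC over 1.5 (limma, Benjamini-Hochberg over all 34930 probes tested). In HS vs. CL, 1 of the 19 probes was DE, against 3.58% of all probes tested. This was an IGF2 probe with a higher signal in HS, and 1.85% of all probes were DE in that direction. None of the 19 was DE in HS vs. TR, against 1.84% of all probes, or in TR vs. CL, against 0.0945%. The methods' t-test also called none of them in TR vs. CL, where it called only 1 of all 34912 probes tested. By limma, an unadjusted p under 0.05 was reached by 1 of the 19 in HS vs. CL (20.7% of all probes), by 3 in HS vs. TR (16.4% of all) and by 0 in TR vs. CL (7.79% of all). The shares of member probes with such a p were near or below those of the array as a whole. In HS vs. CL the shares called DE and without overlap between groups (given below) were larger than on the whole array. They rest on few probes, some of them of the same gene. The tested members had a median log2 change of 0.045 in HS vs. CL (all probes -0.039), of 0.065 in HS vs. TR (all probes -0.039) and of -0.029 in TR vs. CL (all probes -0.006).

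**Figure D1:**
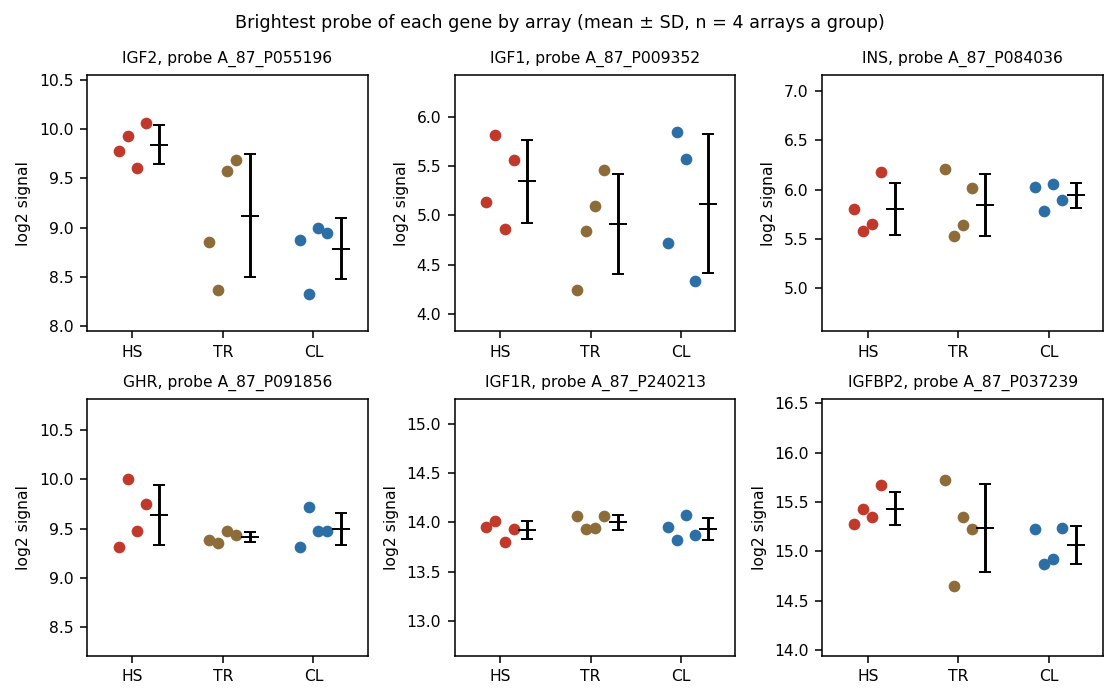
Log2 quantile-normalized signal (vertical axis, the same span in every panel) of the probe with the highest mean signal of each gene, in HS, TR and CL. Points are single arrays, and the bar beside them is the mean ± SD of 4 arrays. The 4 HS arrays of IGF2 lie between 9.60 and 10.06, above all 4 CL arrays, while the IGF1 and INS points of the 3 groups overlap.

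Among the ligands, IGF2 was the gene that rose in HS vs. CL. The log2 signal of its brightest probe, A_87_P055196, was 9.78, 9.93, 9.60 and 10.06 on the HS arrays, 8.85, 8.37, 9.58 and 9.68 on the TR arrays, and 8.88, 8.33, 8.99 and 8.95 on the CL arrays. All HS arrays were above all CL arrays, and the TR arrays were spread over both, with TR1 and TR2 among the CL values, TR3 just below the lowest HS value and TR4 just above it. The HS mean was 1.05 higher than the CL mean on the log2 scale (SE 0.27, 95% interval 0.46 to 1.65, n = 4 each), or 2.08-fold (limma, adjusted p = 0.0701). Leaving out HS4 or CL2 ended the DE call, with log2 changes of 0.98 (adjusted p = 0.151) and 0.90 (adjusted p = 0.16) by limma, as did an FDR limit of 0.05. CL2 was also the lowest CL array in every tested gene of the hypothalamic marker list described below. AVP of that list, for example, was 7.68 on CL2 and 10.43 to 17.68 on the other CL arrays. What this means for the IGF2 difference was not tested. For the IGF2 probe, the arrays spread most in TR, where the SD over 4 arrays was 0.62, while it was 0.20 for HS and 0.31 for CL.

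The other comparisons of this probe did not pass the test. HS was 0.72 higher than TR (SE 0.27, 95% interval 0.13 to 1.32, 1.65-fold) with an adjusted p of 0.223 in limma. TR was 0.33 higher than CL (95% interval -0.26 to 0.92, limma, adjusted p = 0.791). The means were in the order HS, TR, CL, and neither pair of neighbours in the order passed the FDR limit over all probes. The limma interval of HS vs. TR did not hold 0, but limma pools the spread over all groups. By the methods' t-test, which uses only the compared groups, HS vs. TR had an SE of 0.33 and an unadjusted p of 0.0689.

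The other 3 IGF2 probes were dimmer. A_87_P084046, above background on all 12 arrays, had log2 signals of 7.09, 7.37, 7.05 and 7.04 in HS, 6.46, 6.23, 7.09 and 6.41 in TR, and 6.93, 7.01, 6.62 and 6.17 in CL. The 4 HS arrays were again above the 4 CL arrays, by a smaller margin, and TR3 was the only TR array within the HS range. HS was 0.45 higher than CL (SE 0.21, 95% interval -0.009 to 0.92) and 0.59 higher than TR (SE 0.21, 95% interval 0.13 to 1.05), and neither difference passed the test (limma, adjusted p = 0.249 and 0.207). Without TR3 the probe was DE in HS vs. TR, with a log2 change of 0.77 (limma, adjusted p = 0.139), and with normexp background correction the changes were smaller, at 0.24 against CL and 0.31 against TR. The TR mean was lower than the CL mean by this probe (log2 change -0.13) and higher by the brightest one, and both intervals held 0.

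A_87_P035220 was above background on 3 of 4 arrays of each group and was not tested. Its log2 signal was 4.85, 6.02, 5.14 and 5.33 in HS, 4.72, 3.66, 6.21 and 5.28 in TR, and 5.21, 3.71, 4.70 and 4.49 in CL, so that HS1 and HS3 fell within the CL range. A_87_P084041 was above background on 1 HS array, 1 TR array and no CL array, with measured means of 5.11 in HS, 4.46 in TR and 3.77 in CL, and its HS arrays (4.82 to 5.64) were above its CL arrays (3.18 to 4.56). TR2 was the lowest TR array in all 4 probes, and CL2 was the lowest CL array in 3 of the 4 and the highest in A_87_P084046. The correlation between the 2 probes above background everywhere was 0.54 over the 12 arrays (Pearson, as a description).

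**Figure D2:**
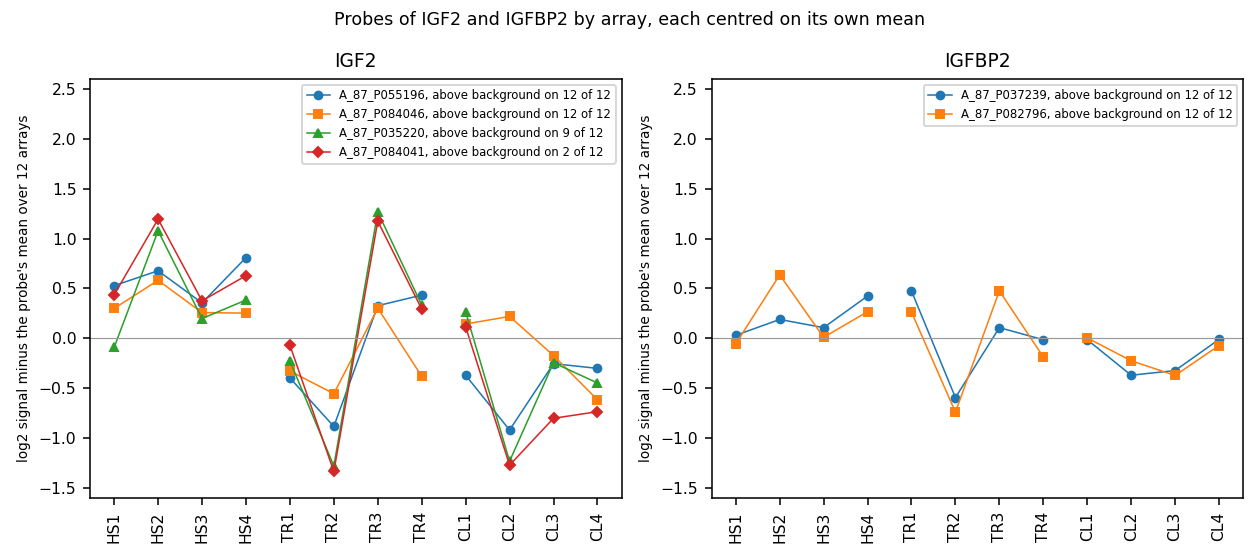
Log2 signal minus the mean of the same probe over the 12 arrays (vertical axis), by array, for the 4 probes of IGF2 (left) and the 2 probes of IGFBP2 (right). Lines join arrays of 1 group. TR2 is the lowest TR array in every probe of both genes, and the legend gives the number of arrays above background.

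The mean signal of some marker lists, that of the hypothalamus among them, correlated with IGF2 across the arrays. Single marker genes were not set against IGF2 in this way. Of 7 listed choroid plexus genes 4 were on the array, 2 of them above background on all 12 arrays, and FOLR1 on none. The summed linear signal of these 4 genes was 5810 to 13200 in HS, 7990 to 14900 in TR and 8720 to 14700 in CL, so the sums overlapped. The sum follows mainly AQP1 and TTR, its brightest genes, while the mean log2 signal weighs all 4 genes alike, FOLR1 included. This mean correlated with IGF2 at r = 0.79. OTX2, a transcription factor of the choroid plexus and other brain regions, was above background on 4 HS, 3 TR and 2 CL arrays. It was tested only through HS, where it was highest. Its difference of 2.07 on the log2 scale between HS and CL (limma, adjusted p = 0.161) rests partly on signal not above background. The members did not move together, since AQP1, a water channel, had a log2 change of -0.75 between HS and CL (limma, adjusted p = 0.161) and TTR, the carrier of thyroid hormone, one of 0.93 (adjusted p = 0.534). For the 5 vessel genes measured of 8 listed, all above background on all 12 arrays, the summed signal was 18700 to 22000 in HS, 15700 to 19000 in TR and 14600 to 18900 in CL, and r with IGF2 was 0.69. Of these, MYH11, the myosin heavy chain of smooth muscle, rose in HS against both CL (log2 change 1.27, limma, adjusted p = 0.127) and TR (1.69, adjusted p = 0.0956). Its CL3 array lay within the HS range. ACTA2, TIE1, KDR and CDH5, also of this list, had log2 changes of 0.56, 0.19, 0.18 and 0.021 against CL. Against TR they had 0.71, 0.085, -0.11 and 0.12 in the same order, and none of these was DE. With IGF2, r was 0.35 for fibroblasts and leptomeninges, 0.33 for the pituitary, 0.22 for spleen and 0.13 for astrocytes. It was -0.4 both for the red blood cell list and for HINTW. The list of hypothalamic neuropeptides and regulators gave r = 0.63. Its 8 genes had a summed signal of 87100 to 435000 in HS, 3080 to 130000 in TR and 468 to 211000 in CL. In HS nearly all of this sum came from AVP, which encodes the antidiuretic hormone. All 5 tested members of this list had a higher mean in HS than in CL, with a median log2 change of 1.08. Of all probes tested, 15134 of 34920 were higher in HS than in CL. Among the 5 tested members, AVP rose by 5.44 (SE 1.85, limma, adjusted p = 0.137), with CL1 within the HS range. The correlations were not confined to IGF2. With the choroid plexus and vessel lists, r was 0.53 and 0.53 for IGFBP2 and 0.43 and 0.52 for GHR. It was 0.08 and 0.24 for IGF1R and 0.04 and 0.14 for INS, and none of these genes had a DE call. The r values are descriptions over 12 arrays that share groups and slides, and the part of these cells, or of the difference in the hypothalamic genes, in the IGF2 difference was not tested. In bulk tissue, a different number of cells of 1 type and a different amount of RNA per cell cannot be told apart.

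The other ligands were weakly measured. IGF1 had 1 probe, A_87_P009352, which was above background on 2 HS, 1 TR and 2 CL arrays and was not tested. Its log2 signals were 5.14, 5.81, 4.86 and 5.56 in HS, 4.25, 4.84, 5.10 and 5.46 in TR, and 4.72, 5.84, 5.57 and 4.34 in CL. The 3 groups overlapped. Without the filter on dim probes no comparison of the probe passed the test, with adjusted p-values in limma of 0.783 for HS vs. CL, 0.626 for HS vs. TR and 0.935 for TR vs. CL.

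INS, the insulin gene, which is transcribed mainly in the pancreas, was measured by 2 probes. A_87_P084036 was above background on all 12 arrays at a low level, with log2 signals of 5.80, 5.58, 5.65 and 6.17 in HS, 6.20, 5.53, 5.64 and 6.01 in TR, and 6.02, 5.79, 6.06 and 5.90 in CL. The groups overlapped, and no comparison passed the test in limma. HS was lower than CL by a log2 change of -0.14 (95% interval -0.50 to 0.23, adjusted p = 0.675). The change was -0.045 between HS and TR (95% interval -0.41 to 0.32, adjusted p = 0.919) and -0.094 between TR and CL (95% interval -0.46 to 0.27, adjusted p = 0.913). A_87_P008906 was not well above background on any array. The probes of the gene thus disagree on whether it was above background, and which part of the transcript each binds was not analysed here.

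Of the receptors, IGF1R varied little. Its brightest probe, A_87_P240213, had log2 signals of 13.95, 14.01, 13.80 and 13.94 in HS, 14.07, 13.93, 13.94 and 14.06 in TR, and 13.95, 13.83, 14.07 and 13.87 in CL. The groups overlapped, and the SD within a group was at most 0.11. None of its 6 probes passed the test in limma. Their log2 changes were between -0.23 and 0.13 for HS vs. CL (adjusted p of at least 0.298), between -0.18 and 0.066 for HS vs. TR (at least 0.458) and between -0.20 and 0.17 for TR vs. CL (at least 0.72). The 95% intervals of all 6 probes and 3 comparisons lay between -0.50 and 0.41, so a change of the size seen in the brightest IGF2 probe lay outside them.

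A_87_P057846 was the only member probe whose HS and TR arrays did not overlap, against 11.3% of all probes tested (6.66% with HS lower, as here). Its log2 signals were 9.93 to 10.08 in HS and 10.11 to 10.27 in TR, with a change of -0.18 (SE 0.11, limma, adjusted p = 0.458). A_87_P009205 ran against the other 5 IGF1R probes. Its correlation with them over the 12 arrays was between -0.43 and 0.06, whereas the other 5 correlated with each other at 0.61 to 0.85. It was also the IGF1R probe with the largest change between HS and CL, -0.23 (SE 0.12, limma, adjusted p = 0.298).

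**Figure D3:**
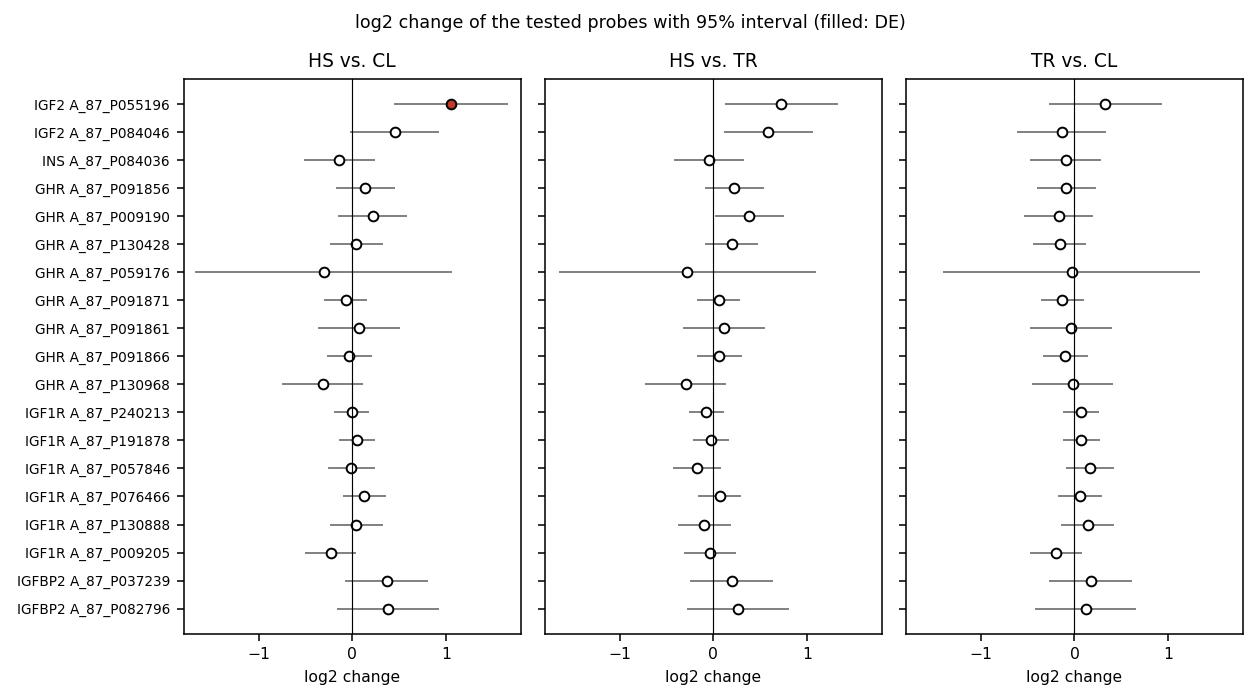
Log2 change (horizontal axis) of the 19 tested probes, with a panel for each of the 3 comparisons and 95% intervals from limma; the filled point is the DE probe. The intervals of the IGF1R probes lie within -0.50 and 0.41, and that of GHR A_87_P059176 spans -1.67 to 1.06 in HS vs. CL.

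GHR, the receptor for growth hormone, had 8 tested probes and no DE call. Against CL, 4 probes were higher in HS and 4 lower, with log2 changes between -0.31 and 0.22 (limma, adjusted p of at least 0.378). Against TR, 6 were higher in HS and 2 lower, between -0.30 and 0.39 (limma, adjusted p of at least 0.269). All 8 had a lower mean in TR than in CL, between -0.17 and -0.017 (limma, adjusted p of at least 0.781), but with normexp background correction A_87_P059176 and A_87_P130968 were higher in TR, by 0.059 and 0.053. The 8 probes measure 1 gene in the same RNA and are not independent of each other.

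The brightest probe, A_87_P091856, had log2 signals of 9.31, 10.00, 9.48 and 9.75 in HS, 9.39, 9.36, 9.47 and 9.43 in TR, and 9.32, 9.72, 9.48 and 9.48 in CL. HS2 and HS4 were the high arrays, followed by CL2, and HS1 was the lowest of all 12. The SD over 4 HS arrays was 0.30, that of TR 0.050 and that of CL 0.16. A_87_P009190 had 8.69, 9.31, 8.79 and 9.30 in HS, 8.60, 8.55, 8.72 and 8.68 in TR, and 8.50, 9.01, 8.71 and 9.01 in CL, with a change of 0.39 in HS vs. TR (SE 0.16, 95% interval 0.028 to 0.74, limma, adjusted p = 0.269). The same arrays were high, joined by CL4, and HS1 lay within the TR range, so the groups overlapped.

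The GHR probes fell into sets that followed different arrays. A_87_P091856, A_87_P009190 and A_87_P130428 correlated with each other at 0.89 to 0.95 over the 12 arrays, and A_87_P091871, A_87_P091861 and A_87_P091866 at 0.75 to 0.90, as a description. The first trio was highest on HS2, and of the other A_87_P091871 and A_87_P091866 were lowest on TR2. A_87_P059176 followed neither. Its log2 signal was 6.26 on HS3, 6.68 on TR1 and 7.06 on CL1, that is on 1 array of each group, and between 8.04 and 8.79 on the other 9 arrays. Its SE of 0.62 was the largest of the tested member probes, and its interval in HS vs. CL ran from -1.67 to 1.06.

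The dimmest GHR probe, A_87_P130968, had log2 signals of 6.40, 6.48, 6.52 and 5.69 in HS, 6.86, 6.29, 6.80 and 6.31 in TR, and 6.54, 6.67, 6.59 and 6.54 in CL. All 4 HS arrays were below all 4 CL arrays, with HS4 far below the rest and not above background. The change was -0.31 (SE 0.19, 95% interval -0.74 to 0.11, limma, adjusted p = 0.378). This was 1 of 4 tested member probes whose HS and CL arrays did not overlap, against 11.9% of all probes tested, the others being the 2 brightest IGF2 probes and 1 IGFBP2 probe. These 3 were higher in HS, and 4.54% of all probes tested were without overlap and higher in HS. The GHR probe was lower, and 7.38% of all probes tested were without overlap and lower in HS. In TR vs. CL none of the 19 was without overlap, against 5.3% of all probes.

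**Figure D4:**
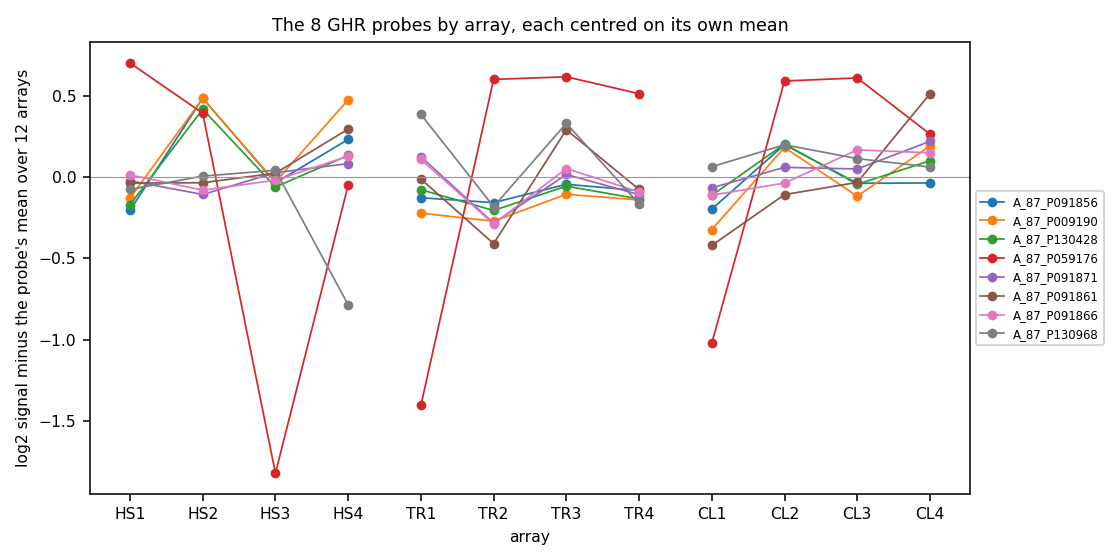
Log2 signal minus the mean of the same probe over the 12 arrays (vertical axis), by array, for the 8 probes of GHR. Lines join arrays of 1 group. A_87_P059176 falls on HS3, TR1 and CL1, and the 3 brightest probes rise together on HS2 and CL2.

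IGFBP2, the carrier of both IGFs, was measured by 2 probes. The log2 signal of A_87_P037239 was 15.27, 15.43, 15.35 and 15.67 in HS, 15.72, 14.65, 15.35 and 15.23 in TR, and 15.23, 14.87, 14.92 and 15.23 in CL. The HS arrays were all above the CL arrays, HS1 only just, while the TR arrays reached beyond both ends. HS was 0.37 higher than CL (SE 0.20, 95% interval -0.062 to 0.80, 1.29-fold), which did not pass the test (limma, adjusted p = 0.311). A_87_P082796 had 9.02, 9.72, 9.09 and 9.35 in HS, 9.34, 8.34, 9.56 and 8.89 in TR, and 9.08, 8.85, 8.71 and 9.01 in CL. HS1 fell below CL1, and the change in HS vs. CL was 0.38 (SE 0.24, limma, adjusted p = 0.397). The changes of the 2 probes were 0.19 and 0.26 in HS vs. TR and 0.17 and 0.12 in TR vs. CL, with adjusted p-values of at least 0.631 in limma. The probes correlated at 0.82 over the 12 arrays.

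The 5 genes with a probe above background on all arrays were set against each other through their brightest probes. IGF2 and IGFBP2 had the highest Pearson r, 0.65 over 12 arrays, and the other 9 pairs lay between -0.17 and 0.46. Of 4119 other named genes, those with the most similar signal over the 12 arrays were SLC25A36 (r = 0.891), WDCP (0.89) and DSP (0.875) for IGF2, and LYZ (0.956), PVALB (0.908) and THRSP (0.879) for GHR. For IGFBP2 they were HTT (0.891), EPHA5 (0.89) and ABAT (0.88), for IGF1R RSL1D1 (0.851), CSNK1E (0.797) and PTGR1 (0.784), and for INS CANX (0.773), MRAS (0.764) and AATF (0.739). These r values are the highest of many and describe the arrays only. IGF1 was not above background on enough arrays to be included.

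The wider pathway was described through a list of 74 genes, of which 35 had a named probe and 30 were tested, each by its brightest probe. None was DE in any of the 3 comparisons by limma or by the methods' t-test. For HS vs. CL, 3 of the 30 had an unadjusted p under 0.05 and 0 had groups without overlap. For HS vs. TR these counts were 7 and 4, and for TR vs. CL they were 2 and 2. Set against the percentages of all probes given above, the shares were lower in HS vs. CL and near them in the other comparisons. The list had a median log2 change of -0.045 for HS vs. CL, -0.015 for HS vs. TR and -0.027 for TR vs. CL.

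Growth hormone itself (GH) and the receptor of its releasing hormone (GHRHR) were not well above background on any array. GHRH was above background on 1 HS array and GHSR, the ghrelin receptor, on 1 TR array. POU1F1, the pituitary transcription factor that drives GH and PRL, had log2 signals of 6.56, 6.40, 6.81 and 7.15 in HS, 6.36, 6.22, 6.14 and 6.23 in TR, and 6.60, 6.30, 6.58 and 6.49 in CL. All HS arrays were above all TR arrays, with a change of 0.49 (SE 0.15, limma, adjusted p = 0.142), which was under the FDR limit and at 1.41-fold short of the FC limit. PRL, prolactin, had 5.65, 6.13, 6.75 and 4.61 in HS, 4.48, 5.12, 4.40 and 4.33 in TR, and 6.07, 6.59, 6.30 and 5.62 in CL, being named here after its values were seen. It was above background on 3 HS, 2 TR and 4 CL arrays. PRL was tested only through CL, the group with its highest mean, so its comparisons with TR rest partly on signal not above background. The TR arrays were all below the CL arrays, and 5.3% of all probes tested were without overlap in that comparison. The change was -1.56 (SE 0.39, limma, adjusted p = 0.344), and HS exceeded TR by 1.20 (limma, adjusted p = 0.171). The summed signal of the 5 pituitary markers measured, which include both genes and 2 that were above background on no array, was 169 to 474 in HS, 129 to 156 in TR and 166 to 215 in CL, and its part in these values was not tested. Ghrelin (GHRL) was above background on 2 HS, 4 TR and 4 CL arrays and had log2 changes of -0.47 for HS vs. CL, -0.59 for HS vs. TR and 0.12 for TR vs. CL (limma, adjusted p of at least 0.411).

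Of the other receptors, IGF2R, which in the chicken sorts lysosomal enzymes and does not bind IGF2, had log2 changes of 0.090 for HS vs. CL, -0.043 for HS vs. TR and 0.13 for TR vs. CL. PRLR, the prolactin receptor, had 0.61, 0.55 and 0.053 for the same 3 comparisons, each with an SE of 0.68. IGFBP4, another IGF carrier, was lower by 0.24 in HS vs. CL (SE 0.10, limma, adjusted p = 0.207) and by 0.22 in HS vs. TR (adjusted p = 0.302), the sign opposite to that of IGFBP2, and neither passed the test. IGFBP1 was above background on no array. The mRNA-binding proteins IGF2BP3 and IGF2BP1, which bind IGF2 mRNA in mammals, had log2 changes of 0.20 and -0.35 against CL and of 0.31 and -0.34 against TR in HS, with adjusted p-values of at least 0.171 in limma.

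Among genes of growth hormone signalling, STAT5A was lower by 0.35 on the log2 scale in HS vs. CL (SE 0.12, 95% interval -0.61 to -0.10, limma, adjusted p = 0.124). Its log2 signals were 11.12, 11.22, 10.94 and 10.72 in HS, 11.13, 11.34, 11.31 and 11.35 in TR, and 11.31, 11.18, 11.45 and 11.46 in CL. HS2 lay above CL2, and the FC of 1.28 was short of the limit for DE. In insulin and IGF signalling, the kinase MAP2K1 had log2 changes of 0.064 for HS vs. CL, 0.10 for HS vs. TR and -0.037 for TR vs. CL, and PIK3CB, a catalytic subunit of PI3-kinase, had -0.11, -0.19 and 0.078 for the same comparisons (limma, adjusted p of at least 0.433).

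**Figure D5:**
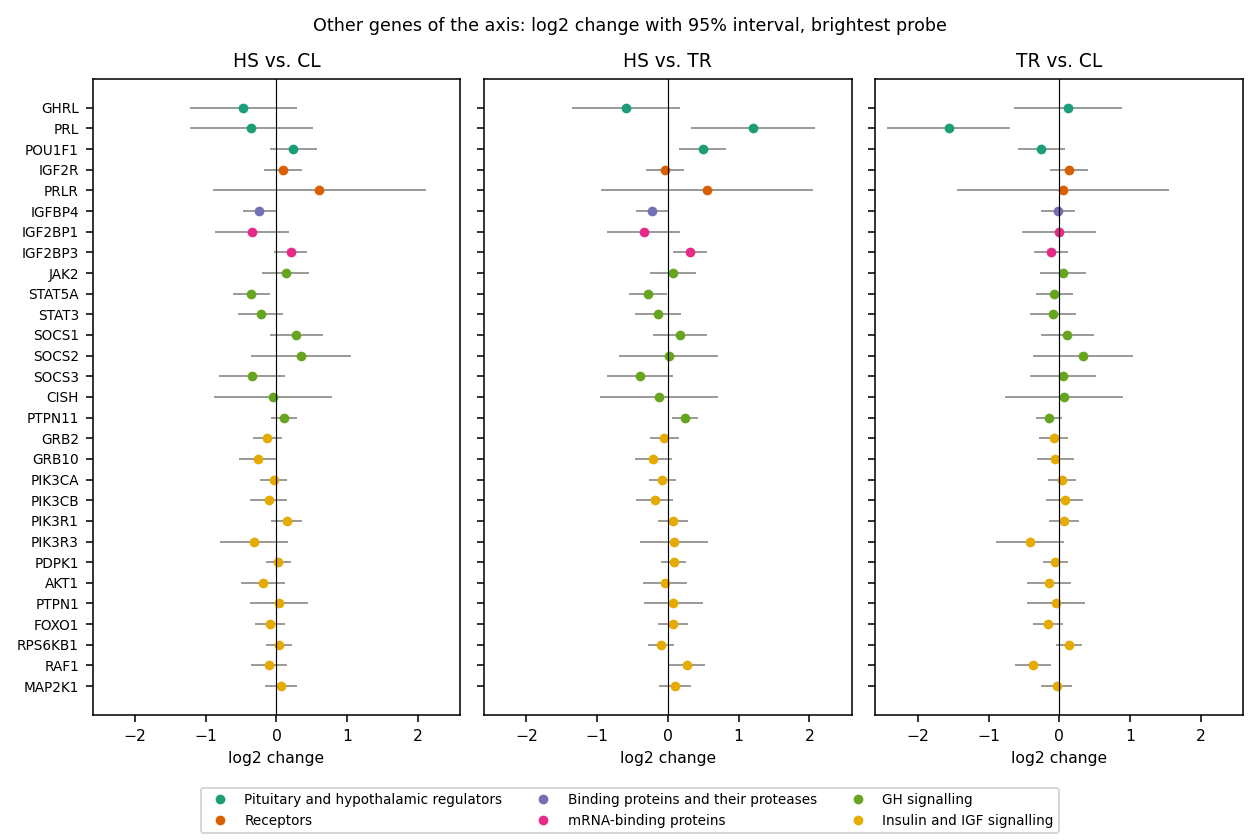
Log2 change (horizontal axis) of the tested genes of the wider axis (1 of the 30 is not shown), with a panel for each of the 3 comparisons, each gene by its brightest probe, with 95% intervals from limma and colours for the role in the axis. PRL, above background on 2 of the 4 TR arrays and tested only through CL, has the largest change, -1.56 in TR vs. CL. No gene shown is DE.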

How the data were processed

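The authors hybridised Cy3-labelled cRNA to 1-colour Agilent 44K chicken arrays and read the scanned spots out with Feature Extraction 10.7. They deposited for each of the 12 arrays the processed intensity of every spot, which is background-subtracted and not scaled between arrays, with median spot and local background intensity, and marks for spots above background, outliers and saturation. The log2 values that the authors deposited as a table are quantile-normalized and were made per the study's methods with GeneSpring 11.0. Its entries were matched to spots by their values (within 12 positions) and it served only as an alternative. Here the processed intensities were taken to log2, 420 values marked as outliers were left out (none of a member probe), and the arrays were quantile-normalized over the probes besides the controls. Gene names came from the probes' transcripts through the RefSeq table (10185 probes, 4814 genes), which is for the assembly GRCg7b, so no coordinates are given. Probes for which 1 group or more was above background throughout its 4 arrays were tested with limma 3.58.1 in R 4.3.3 in 1 fit of the 3 groups, with Benjamini-Hochberg adjustment, and the fit was tested on simulated data. Groups came from the sample titles.

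All probes of the 6 genes are given. Of the 74 listed genes of the wider axis, those DE in any comparison were to be named, with up to 2 further genes per role by mean signal, and 3 genes of most similar pattern for each member gene by Pearson r. A gene that this rule names is not reported here. The members and lists were chosen with earlier results of these data known. The lists of marker genes cover hypothalamus, pituitary, choroid plexus, fibroblasts, vessels, astrocytes, spleen and red blood cells. The alternatives tried were normexp background correction (offset 50, on the median signal), scaling to the 75th percentile, looser filters on dim signal, keeping outlier spots, an FDR limit of 0.05, the methods' t-test, 2 groups per fit, the replicate number as a block, the deposited table, and each array left out in turn. The number of arrays limits the precision. No probe sequence was used here.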

Additional observations from a re-analysis of the deposited data

Results flagged for a closer look

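Among the 57 groups of 4 arrays formed by the 19 tested probes, 4 held an array that stood far from the other 3, judged by the gap to the nearest array as a share of the range of the group (Dixon's test at the 95% level). Chance flags about 1 in 20 groups. For GHR A_87_P059176 it was TR1, at 6.68 on the log2 scale against 8.60 to 8.70 on the other TR arrays. For GHR A_87_P130968 it was HS4, at 5.69 against 6.40 to 6.52, and this was the 1 member value among tested probes that was not above background. For IGF2 A_87_P084046 it was HS2, at 7.37 against 7.04 to 7.09. For IGF1R A_87_P009205 it was CL4, at 8.09 against 8.48 to 8.55.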

How the results depend on the processing

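The change of IGF2 A_87_P055196 in HS vs. CL kept its direction under every alternative run (log2 change 0.956 to 1.055 over the settings, 0.901 to 1.133 with 1 array left out, adjusted p 0.0602 to 0.16). The looser filters, FDR limit, t-test, 2-group fit and block cannot move this log2 change. It was 1.042 with scaling to the 75th percentile and 0.956 with normexp. The deposited table, matched to spots by value, gave 1.055, the same as with outlier spots kept. The count of DE member probes in HS vs. CL was 0 with an FDR limit of 0.05 and between 0 and 1 with 1 array left out, 0 without HS4 or CL2. In HS vs. TR it was between 0 and 1, 1 without TR3. Of the listed axis genes, 1 was DE in HS vs. TR with scaling to the 75th percentile (POU1F1, 0.645, adjusted p = 0.0501) and 1 with the replicate block (PRL, 1.20, adjusted p = 0.119). With 1 array left out the count was between 0 and 1 in HS vs. TR (POU1F1 without HS2, adjusted p = 0.0961, and PRL without HS4, adjusted p = 0.0706) and in TR vs. CL (PRL without HS4, adjusted p = 0.139). The replicate numbers did not pair the birds (r of deviations between arrays of the same number -0.152 to 0.367). The block changed no other call of a member probe or a listed axis gene. Over all probes tested, 1250 were DE in HS vs. CL, but 658 with normexp, 351 with an FDR limit of 0.05, 413 by the methods' t-test and 494 to 1908 with 1 array left out. In HS vs. TR the count was 644, but 299, 157, 254 and 261 to 1218 in the same order, and in TR vs. CL it was 33, but 19, 0, 1 and 0 to 42, and 57 with scaling to the 75th percentile, 20 with the replicate block and 10 with only the 2 groups in the fit. For members no called value changed sign. Of 591 values under the settings, 9 had another sign than the value reported, and so had 40 of 462 with 1 array left out, all of changes not called under either. Most of the 591 could not have changed sign, because the filters, FDR limit, t-test, 2-group fits and block leave the log2 change of a member probe as it is. Of the 8 GHR probes lower in TR than in CL, A_87_P059176, A_87_P130968 and A_87_P091861 turned sign when 1 array was left out. The cause of these differences was not tested. Array signal over background limits IGF1, INS and the dimmer IGF2 probes.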

Other observations

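In the RefSeq annotation of GRCg7b the genes TH, INS and IGF2 follow one another. TH, the enzyme of catecholamine synthesis, was above background on 4 HS, 0 TR and 1 CL arrays, with log2 signals of 5.04, 6.30, 7.24 and 9.54 in HS, 2.41, 3.99, 2.40 and 2.37 in TR, and 4.68, 4.50, 2.39 and 2.32 in CL. All HS arrays were above all arrays of the other groups (limma, adjusted p = 0.0652 against CL and 0.0625 against TR). TH was tested only through HS, where it was highest, so both of these comparisons rest partly on signal not above background. Of all probes tested, 11.9% had no overlap between HS and CL arrays, and 11.3% had none between HS and TR arrays. INS, between TH and IGF2 in this order, was 0.14 lower on the log2 scale in HS than in CL and did not pass the test. Of the further neighbours measured, CD81 had a log2 change of 0.11 (SE 0.19) and TNNT3 of 0.15 (SE 1.62) between HS and CL, and neither passed the test. The log2 signal of TNNT3 was 12.56 on HS2 and 14.10 on CL2, against 6.44 to 8.66 on the other arrays. The reason for these high values was not tested. TH was looked at for its position, after the values of the member genes were seen.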
